A study of Drosophila melanogaster with 6 samples.

Results

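The 8 genes described here encode chromatin-binding factors that act with or after the pioneer factor Zelda (ZLD) in the early *Drosophila* embryo: *Trl*, *Clamp*, *psq*, *lola*, *ttk*, *grh*, *Stat92E* and *BEAF-32*. They were chosen by name, for what is known of their proteins, though with earlier results of these data known. Each was found in 1 of the 16596 loci of the deposited expression table. Messenger RNA was sequenced from hand-sorted embryos of stage 5, when the blastoderm cellularizes and the zygotic genome becomes broadly active, in 3 samples of each of 2 genotypes. *zldZnF2* embryos were laid by females homozygous for a Cas9-made allele of *zld* in which a serine replaces a zinc-chelating cysteine of the second zinc finger. The controls were *w1118* embryos, wild type for *zld*. The zygotic genotype of the *zldZnF2* embryos, the number of embryos per sample and the number of independent lines of the allele are not given in the sources used here. For each locus the table holds 1 FPKM per genotype, a level normalized for transcript length and for the number of mapped reads, which the authors computed over the 3 samples together. No value per sample was available, so no spread between replicates, depth or replicate test can be given for any gene below, and a difference between genotypes is described by its size alone. It is given as the log2 ratio of *zldZnF2* over *w1118* after adding 1 to each FPKM, a scale that understates the difference of genes at low levels.

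A pioneer factor binds its motif in closed chromatin and makes the region accessible to other factors, and ZLD is the maternally supplied pioneer of the fly's maternal-to-zygotic transition. It does not act alone. The GAGA factor, encoded by *Trl*, and CLAMP bind GA-rich repeats and keep promoters and enhancers open, partly at sites that do not need ZLD. Grainy head opens epithelial enhancers later in development, and BTB-domain proteins such as Tramtrack and Lola bind DNA through zinc fingers that differ between their isoforms. Many of these factors are loaded into the egg as mRNA or protein, so a level at stage 5 can hold maternal and zygotic transcripts, which these data do not separate. Nor can fewer cells that express a gene be told apart from less mRNA per cell in whole embryos.

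6 of the 8 genes were among the more abundant mRNAs of the embryo in both genotypes, and *grh* and *ttk* were not. *lola* stood highest, at 1415 FPKM in *zldZnF2* embryos and 1452 FPKM in *w1118* embryos. The next 5 genes lay close together, between 126 and 225 FPKM in *zldZnF2* embryos and between 195 and 269.6 FPKM in *w1118* embryos. In *zldZnF2* embryos they followed the order *BEAF-32*, *Trl*, *psq*, *Clamp* and *Stat92E*. In *w1118* embryos the order was *BEAF-32*, *Trl*, *Stat92E*, *psq* and *Clamp*, so that *Stat92E* stood below *psq* and *Clamp* in the mutant and above both in the control. Without replicate values it cannot be said which neighbours in these orders differ beyond the spread between samples. *grh* came seventh in both genotypes, and *ttk* was the lowest at about 1 to 2 FPKM. Whether the authors' transcript assembly affected the low *ttk* value was not tested, so comparisons of level with *ttk* carry this limit.

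**Figure D1:**
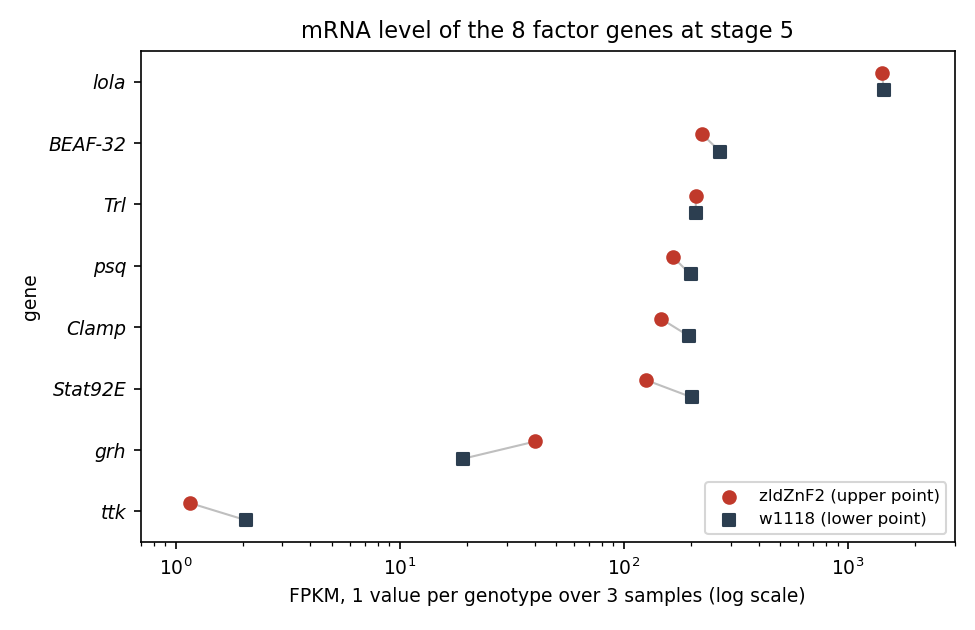
FPKM (log scale, x axis) of the 8 genes, ordered by mean level from top to bottom, with *zldZnF2* as the upper red point and *w1118* as the lower dark square of each pair; each point is 1 value over 3 samples, so there are no error bars. The *zldZnF2* point lies right of the *w1118* square by a visible distance for *grh* alone (40.2 against 19.2 FPKM).

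Among the 8 genes, *grh* alone was past the 2-fold limit, and it was higher in *zldZnF2* embryos. *grh* (FBgn0259211) encodes Grainy head, a pioneer factor of epithelial enhancers that acts in the epidermis and its barrier. It lies on the plus strand of 2R, from 17801132 to 17842820 of dm6, with 8 annotated transcripts from 5 start sites (Ensembl release 115). Its level was 40.2 FPKM in *zldZnF2* embryos, against 19.2 FPKM in *w1118* embryos. The log2 ratio was 1.03, or 2.04-fold with 1 added to each FPKM. This is just past the limit, and 9.11% of the 5950 loci with a mean FPKM of at least 1 had a higher ratio. Over all these loci 9.73% were higher by more than 2-fold and 7.56% were lower, so 1 of 8 genes is close to the background and is not a result about the group. Of the 2772 loci with a mean FPKM from 10 to below 100, the range in which *grh* lies, 6.93% were higher by more than 2-fold.

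Most of the genes on which Grainy head acts in the later epidermis were almost silent in both genotypes. Of 10 genes listed for epidermal barrier, cuticle and junction functions, only *shg*, the E-cadherin gene, had a mean FPKM of at least 1, with 98.1 FPKM in *zldZnF2* embryos and 120 FPKM in *w1118* embryos. Its log2 ratio was -0.29. *Ddc*, encoding the dopa decarboxylase of cuticle hardening, had 0.0208 FPKM in *zldZnF2* embryos and 0.490 FPKM in *w1118* embryos. *ple*, the tyrosine hydroxylase gene, had 0.296 FPKM in *zldZnF2* embryos and 0.176 FPKM in *w1118* embryos. *kkv*, the chitin synthase gene, was at 0.821 FPKM in *zldZnF2* embryos and 0.787 FPKM in *w1118* embryos. *Fas3* had 1.00 FPKM in *zldZnF2* embryos and 0.265 FPKM in *w1118* embryos. *cora* went the other way, with 0.546 FPKM in *zldZnF2* embryos and 1.19 FPKM in *w1118* embryos. The higher *grh* level was thus seen beside listed genes that, apart from *shg*, were low in both genotypes. *opa*, a zinc finger factor of segmentation that opens chromatin after ZLD, had 129.96 FPKM in *zldZnF2* embryos and 62.0 FPKM in *w1118* embryos. Its log2 ratio of 1.06 was close to that of *grh*. Of all loci with a mean FPKM from 10 to below 100, where both genes lie, 6.93% were higher by more than 2-fold. *opa* was the only gene of its list, so this likeness is not read as a trait of such factors.

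The 3 genes for proteins that bind GAGA repeats lay within 1.5-fold between genotypes, with *Trl* near even and *psq* and *Clamp* lower in *zldZnF2* embryos. *Trl* (FBgn0013263), the gene of the GAGA factor, lies on the minus strand of 3L, from 14747929 to 14761049, with 10 annotated transcripts. It had 210.1 FPKM in *zldZnF2* embryos and 209 FPKM in *w1118* embryos, a log2 ratio of 0.01. The table gives this value to a locus that *Trl* shares with *CG33260* and *CG42507*, which overlap it on the same strand, so the *Trl* mRNA alone was not measured. *psq* (FBgn0263102; 2R, 10557888 to 10617280, plus strand, 15 transcripts) encodes Pipsqueak, a BTB protein that binds GAGA repeats through its own kind of DNA-binding domain and works with Polycomb group proteins. Its level was 166 FPKM in *zldZnF2* embryos and 199 FPKM in *w1118* embryos, a log2 ratio of -0.26. *Clamp* (FBgn0032979; 2L, 22165720 to 22169143, minus strand, 2 transcripts) encodes the zinc finger protein that brings the dosage compensation complex to the male X chromosome and binds the histone locus. It had 146 FPKM in *zldZnF2* embryos and 195 FPKM in *w1118* embryos, a log2 ratio of -0.41. These values belong to a locus from 22131221 to 22169143, which extends well beyond the annotated gene. All 3 genes lay within 1.5-fold, as did 91.8% of the 1205 loci with a mean FPKM of at least 100. *psq* and *Clamp* both lay below the lower quartile of these loci, -0.21, and above their 10th percentile, -0.47.

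The remodelling complexes that work with the GAGA factor were abundant and mostly close to even between the genotypes. Of 12 listed genes of the remodellers NURF and PBAP and of the histone chaperone FACT, 11 had a mean FPKM of at least 1, and the twelfth, *e(y)3*, is X-linked and listed at 0. 1 of the 11 was higher by more than 2-fold and none was lower, beside 9.73% and 7.56% of all loci, with a median log2 ratio of 0.10. The gene past the limit was *Ssrp*, a FACT subunit, with 36.2 FPKM in *zldZnF2* embryos and 15.5 FPKM in *w1118* embryos. The other FACT subunit, *dre4*, had 17.1 FPKM in *zldZnF2* embryos and 11.8 FPKM in *w1118* embryos, a log2 ratio of 0.49. *E(bx)*, the large NURF subunit that binds the GAGA factor, had 45.5 FPKM in *zldZnF2* embryos and 55.3 FPKM in *w1118* embryos. *Iswi*, the NURF ATPase, had 298 FPKM in *zldZnF2* embryos and 242 FPKM in *w1118* embryos, and *brm*, the PBAP ATPase, had 247 FPKM in *zldZnF2* embryos and 226 FPKM in *w1118* embryos.

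Of the MSL dosage compensation complex, to which CLAMP is linked, 4 of 5 listed genes could be read, since *mof* is X-linked and at 0. *msl-2*, which encodes the male-limiting subunit of the complex, was the only one past 2-fold, beside 9.73% of all loci higher, with 112 FPKM in *zldZnF2* embryos and 43.3 FPKM in *w1118* embryos, a log2 ratio of 1.35 for a locus it shares with *mir-4971*. *msl-3*, the chromodomain subunit, had 28.1 FPKM in *zldZnF2* embryos and 48.3 FPKM in *w1118* embryos, a log2 ratio of -0.76. *msl-1*, the scaffold, had a log2 ratio of -0.31, and *mle*, the helicase, one of 0.30. The 4 genes thus spread to both sides of 0, with a median of -0.01. Over the 3 single-gene loci, which leave out *msl-2*, the median was -0.31.

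The BTB zinc finger genes *lola* and *ttk* stood at opposite ends of the range of levels. *lola* (FBgn0283521; 2R, 10481894 to 10543291, minus strand) has 24 annotated transcripts that join a shared BTB domain to alternative zinc fingers, and its products act in axon guidance and germline and neural identity. Its 1415 FPKM in *zldZnF2* embryos and 1452 FPKM in *w1118* embryos gave a log2 ratio of -0.04, a level above that of 98.4% of the expressed loci in both genotypes. The value is that of a locus shared with *pre-lola-G*, which lies within *lola* on the same strand, and it says nothing of single isoforms. *ttk* (FBgn0003870; 3R, 31713867 to 31735392, plus strand, 8 transcripts) encodes Tramtrack, a repressor of pair-rule genes in the early embryo and of neural fate later. It had 1.15 FPKM in *zldZnF2* embryos and 2.05 FPKM in *w1118* embryos. The log2 ratio was -0.50 with 1 added to each FPKM and -0.83 with nothing added, so that *ttk* was past 1.5-fold only without this addition or with a smaller one. At such a level the size of the difference is the least certain of the 8. In the decay classification that the study used, *lola* and *ttk* both belong to the class of mRNAs cleared by the zygotic pathway, and *BEAF-32* to one cleared by the maternal pathway.

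**Figure D2:**
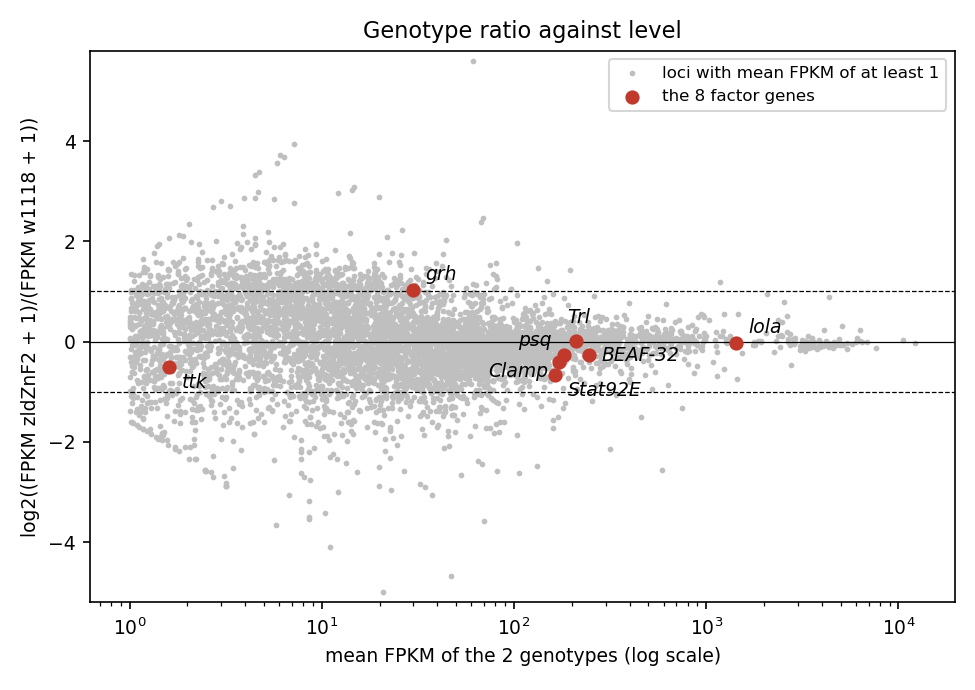
Log2 ratio of *zldZnF2* over *w1118* with 1 added to each FPKM (y axis) against the mean FPKM of both genotypes (log scale, x axis) for the 5950 loci with a mean FPKM of at least 1 (grey) and the 8 factor genes (red); dashed lines mark 2-fold. *grh* lies just above the upper line, and the other 7 lie between the lines, with *Stat92E* the lowest at -0.67.

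The genes that direct Tramtrack to degradation or work with it were listed at higher levels than *ttk*, within the limit on the *ttk* value given above. All 6 listed genes had a mean FPKM of at least 1, and 1 was lower by more than 2-fold, beside 7.56% of all loci. That gene, *phyl*, encodes the adaptor that brings Tramtrack to the ubiquitin ligase Sina, and it had 21.4 FPKM in *zldZnF2* embryos and 57.3 FPKM in *w1118* embryos, a log2 ratio of -1.38. *sina*, the ligase gene, had 78.5 FPKM in *zldZnF2* embryos and 105 FPKM in *w1118* embryos, and *ebi*, a further component of this degradation, had 183 FPKM in *zldZnF2* embryos and 218 FPKM in *w1118* embryos. These 3 degradation genes all had ratios below 0. So did 57.1% of all loci with a mean FPKM from 10 to below 100 and 55.9% of those with at least 100. The shared direction is therefore not read as a result about these genes. The corepressor genes *MEP-1*, *Mi-2* and *CtBP* had log2 ratios of -0.00, 0.06 and 0.27, the first for a locus shared with *CG42245*.

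Other BTB genes of the same group ranged from abundant ones with ratios near 0 to scarce ones. In between, *rib* had 53.6 FPKM in *zldZnF2* embryos and 47.3 FPKM in *w1118* embryos, a log2 ratio of 0.18. *lov* had 36.9 FPKM in *zldZnF2* embryos and 37.5 FPKM in *w1118* embryos, a log2 ratio of -0.02 for a locus of 2 genes. *mod(mdg4)*, whose trans-spliced isoforms serve insulators, had 1267 FPKM in *zldZnF2* embryos and 1292 FPKM in *w1118* embryos, for a locus with 15 entries of the gene. *lolal*, a short BTB protein that binds the GAGA factor, had 449 FPKM in *zldZnF2* embryos and 417 FPKM in *w1118* embryos. 7 of the 12 listed genes had a mean FPKM of at least 1, and 2 of the 7 were higher by more than 2-fold, beside 9.73% of all loci. These were *ken*, a repressor of JAK/STAT targets, with 7.76 FPKM in *zldZnF2* embryos and 1.27 FPKM in *w1118* embryos, and *bab2*, a regulator of limb and abdominal patterning, with 1.87 FPKM in *zldZnF2* embryos and 0.238 FPKM in *w1118* embryos. Both are scarce, and 19.4% of all loci with a mean FPKM from 1 to below 10 were higher by more than 2-fold. *ab*, *bab1*, *chinmo* and *fru* had under 1 FPKM in both genotypes, and *br* is X-linked and at 0.

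*Stat92E* had the lowest ratio of the 8 genes. It (FBgn0016917; 3R, 20535323 to 20552311, minus strand, 11 transcripts) encodes the only fly STAT, which is activated by the JAK kinase Hopscotch and regulates pair-rule stripes and other early targets. Its level was 126 FPKM in *zldZnF2* embryos, against 201 FPKM in *w1118* embryos. The log2 ratio was -0.67, or 1.59-fold lower in *zldZnF2* embryos with 1 added to each FPKM, within 2-fold but past 1.5-fold. Over all 5950 loci 17.1% were lower by more than 1.5-fold, and of the 1205 loci with a mean FPKM of at least 100, 6.31% were. *Stat92E* and *grh* were the 2 of 8 genes past 1.5-fold in either direction, against 37.2% of all loci.

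Most of the JAK/STAT pathway upstream of *Stat92E* could not be read. The ligand genes *upd1*, *upd2* and *upd3*, the receptor gene *dome*, the kinase gene *hop*, the receptor antagonist *et* and *Socs16D* are X-linked and listed at 0 in both genotypes. Of 12 listed genes, 5 had a mean FPKM of at least 1. *Ptp61F*, a phosphatase that acts against the pathway, had 189 FPKM in *zldZnF2* embryos and 268 FPKM in *w1118* embryos, a log2 ratio of -0.51. *Su(var)2-10*, the fly PIAS protein that restrains STAT, had 181 FPKM in *zldZnF2* embryos and 226 FPKM in *w1118* embryos, a log2 ratio of -0.32. *Socs36E*, a STAT target and feedback inhibitor, had 38.6 FPKM in *zldZnF2* embryos and 31.5 FPKM in *w1118* embryos, and *Socs44A* had 13.4 FPKM in *zldZnF2* embryos and 8.07 FPKM in *w1118* embryos. These regulators thus did not share a direction. *ken*, given above with the BTB genes, was the only one past 2-fold, beside 9.73% of all loci higher by that much. Of loci with a mean FPKM from 1 to below 10, where *ken* lies, 19.4% were.

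*BEAF-32* (FBgn0015602; 2R, 14770469 to 14772630, plus strand, 3 transcripts) encodes a boundary element factor that binds near the promoters of housekeeping genes. It had 225 FPKM in *zldZnF2* embryos and 269.6 FPKM in *w1118* embryos, a log2 ratio of -0.26. The other insulator and boundary genes were expressed in both genotypes with none past 2-fold among the 16 of 17 with a mean FPKM of at least 1, and the seventeenth, *dwg*, is X-linked and at 0. Of all loci with a mean FPKM of at least 100, where most of these genes lie, 2.24% were past 2-fold, so a count of 0 is close to the background. Their median log2 ratio was 0.08 and their range -0.43 to 0.41. The ends of the range were *pita*, with 90.5 FPKM in *zldZnF2* embryos and 122 FPKM in *w1118* embryos, and *CTCF*, with 9.73 FPKM in *zldZnF2* embryos and 7.09 FPKM in *w1118* embryos. *Cp190*, the cofactor that many insulators share, had 352 FPKM in *zldZnF2* embryos and 349.5 FPKM in *w1118* embryos. The early boundary genes *Elba1*, *Elba2*, *Elba3* and *insv*, whose products form and resemble an embryonic boundary complex, stood between 718 and 1200.3 FPKM in *zldZnF2* embryos and between 596 and 1220.0 FPKM in *w1118* embryos.

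**Figure D3:**
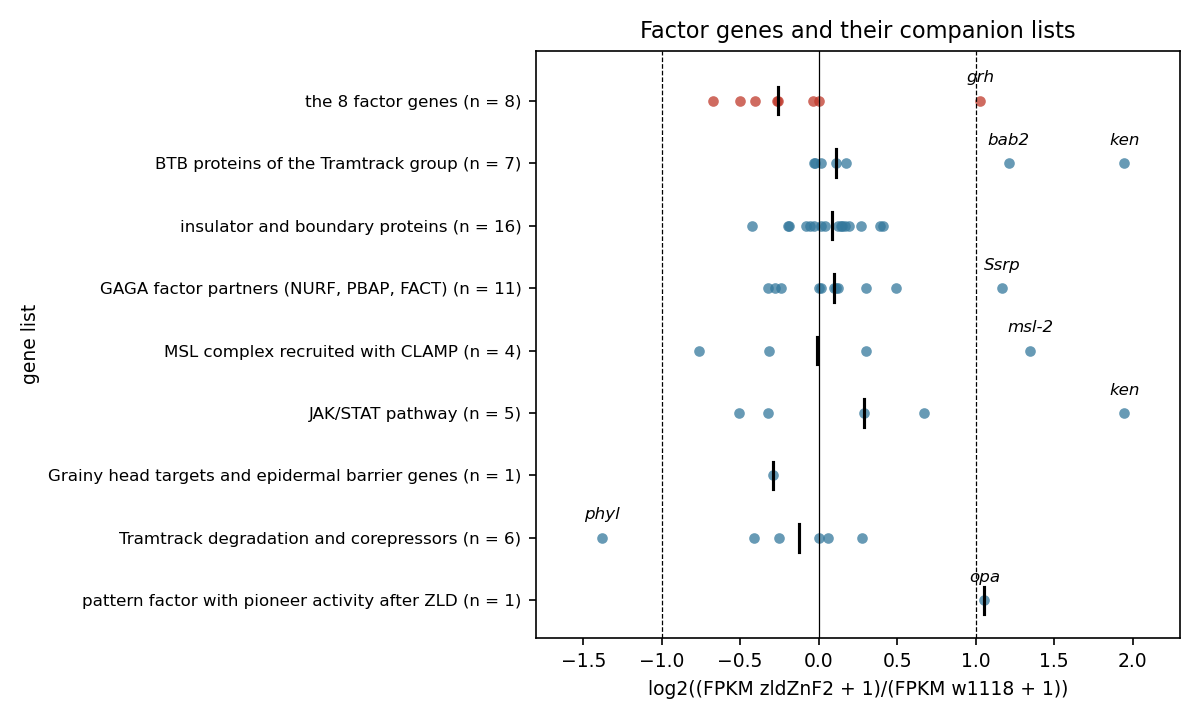
Log2 ratio of *zldZnF2* over *w1118* with 1 added to each FPKM (x axis) for the 8 factor genes (red) and for the genes of each companion list with a mean FPKM of at least 1 (blue); black bars are medians and dashed lines mark 2-fold. The insulator list lies wholly between the lines, and the 6 companion genes past them are named (*ken* stands in 2 lists).

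Set against all expressed loci, the 8 genes as a group showed no excess of differences past 2-fold. Of the 8, 1 was higher by more than 2-fold and none was lower, beside 9.73% and 7.56% of all loci. Their median log2 ratio was -0.26, beside -0.01 over all 5950 loci, and 6 of the 8 were below 0, beside 50.7% of all loci. Among the 6 genes with a mean FPKM of at least 100, 5 were below 0 and none was past 2-fold, while of all 1205 loci at that level 55.9% were below 0 and 2.24% were past 2-fold in either direction. The median of the 6 genes was -0.26, beside -0.03 over the 1205 loci. *psq*, *BEAF-32*, *Clamp* and *Stat92E* lay below the lower quartile of these loci, -0.21, and *Trl* and *lola* above it. Of the 6, *Stat92E* alone lay below the 10th percentile, -0.47. Across the 8 companion lists, 48 different loci had a mean FPKM of at least 1. 5 of them were higher by more than 2-fold and 1 was lower, and their median log2 ratio was 0.08.

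The values of some of the 8 loci rest on transcripts that overlap others on the opposite strand, and the strand setting of the authors' counting is not given in the sources used here, so reads of such pairs cannot be told apart. *grh* overlaps *CR45270*, which is listed at 11.7 FPKM in *zldZnF2* embryos and 8.31 FPKM in *w1118* embryos. *BEAF-32* overlaps *CR42254*, at 8.60 FPKM in *zldZnF2* embryos and 6.53 FPKM in *w1118* embryos, and *lola* overlaps *CR45135*, at 2.64 FPKM in *zldZnF2* embryos and 1.09 FPKM in *w1118* embryos. *Clamp* overlaps *CG42748*, at 15.5 FPKM in *zldZnF2* embryos and 14.3 FPKM in *w1118* embryos. Each partner was listed below its factor gene. *CR45270* was the nearest in level, beside 40.2 FPKM of *grh* in *zldZnF2* embryos and 19.2 FPKM in *w1118* embryos.

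The ratio of 6 of the 8 genes lay outside the range of the expressed genes around them, and those of *lola* and *BEAF-32* lay within it. Only 2 to 9 loci with a mean FPKM of at least 1 lie within 20 kb of each gene, and a gene can easily fall outside so small a set. The share of all loci outside the range of their neighbours was not computed. These ranges and the count of 6 are therefore descriptions only and not a result about the 8 genes. Within 20 kb of *grh*, 8 loci ran from -1.25 to 0.45 on the log2 scale, below the 1.03 of *grh*. Around *Trl*, 3 loci ran from -0.61 to -0.21, below the 0.01 of the *Trl* locus. The other 4 lay below their neighbours. Around *Stat92E*, 5 loci ran from -0.39 to 0.31, and around *Clamp*, 2 loci stood at 0.11. Around *psq*, 2 loci stood at -0.04 and 0.80, the first of them *lola*, which lies 14597 bp away on the opposite strand. Around *ttk*, 8 loci ran from -0.48 to 0.88, so that *ttk* at -0.50 was just under the lowest. Around *BEAF-32*, 7 loci ran from -0.76 to 0.70, and around *lola*, 9 loci from -0.79 to 1.00.

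**Figure D4:**
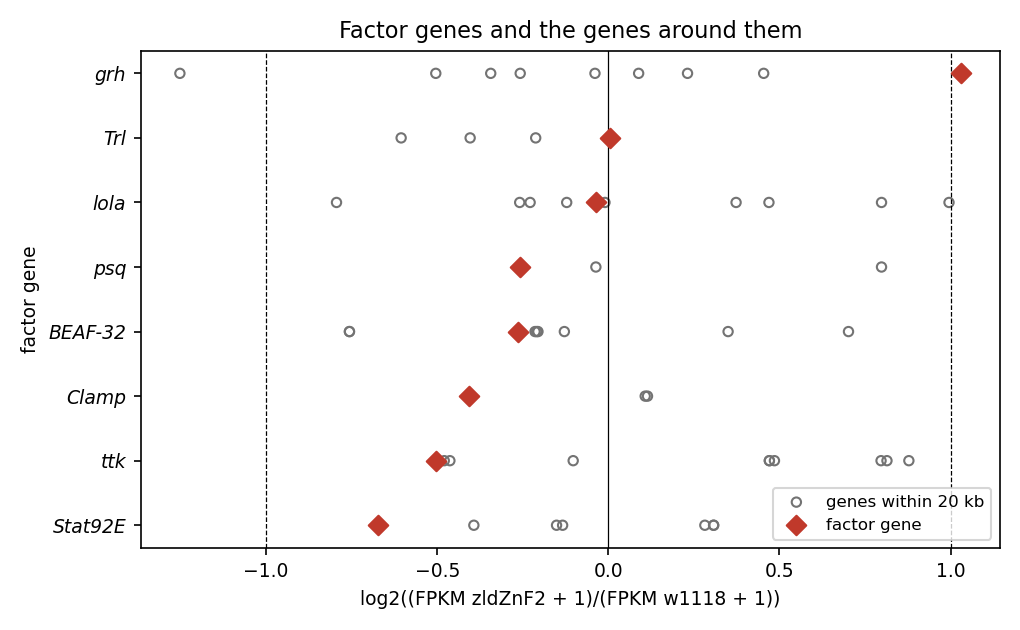
Log2 ratio of *zldZnF2* over *w1118* with 1 added to each FPKM (x axis) for each factor gene (red diamond) and for the genes within 20 kb of it with a mean FPKM of at least 1 (open circles); dashed lines mark 2-fold. 6 of the 8 diamonds lie outside the range of their neighbours, those of *grh* and *Trl* above it and those of *psq*, *Clamp*, *ttk* and *Stat92E* below it. The neighbours are few and the same share over all loci was not computed, so this count is a description only.

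The mutated gene *zld*, whose row carries the name *vfl*, is at 0 FPKM in both genotypes, as are all 2716 loci of chromosomes X, 4 and Y, so it could not be used to check the genotype labels and these zeros are not read as absence of mRNA. The stage was checked with zygotic genes of cellularization. 4 of 5 could be read, and the list summed to 6401 FPKM in *zldZnF2* embryos and 6159 FPKM in *w1118* embryos. None was past 2-fold, beside 2.24% of all loci with a mean FPKM of at least 100, so this count says little about a matched stage. The sum also covers opposite differences, with log2 ratios from -0.68 for *bnk* to 0.39 for *halo*. *halo*, the largest part of the sum, had 2812 FPKM in *zldZnF2* embryos and 2144 FPKM in *w1118* embryos. *bnk*, a regulator of the closing cell furrows, had 872 FPKM in *zldZnF2* embryos and 1398 FPKM in *w1118* embryos. Eggshell genes, markers of ovarian follicle cells, had at most 1.14 FPKM in *zldZnF2* embryos and 1.20 FPKM in *w1118* embryos. Of 9 muscle genes, 6 had a mean FPKM of at least 1, and 4 of these were lower by more than 2-fold, beside 7.56% of all loci. The list without *Tm1*, which other tissues also express, summed to 2.61 FPKM in *zldZnF2* embryos and 35.3 FPKM in *w1118* embryos. Most of the latter was *Act57B*, with 0.336 FPKM in *zldZnF2* embryos and 21.7 FPKM in *w1118* embryos. *Prm* went the other way, with 1.91 FPKM in *zldZnF2* embryos and 0.896 FPKM in *w1118* embryos. *Mf* and *TpnC73F* were at 0 in *zldZnF2* embryos, and *up* and *wupA* at 0 in both genotypes. The part of these muscle transcripts, and of any difference in age within the stage, in the ratios of the 8 genes was not tested.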

How the data were processed

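Messenger RNA of 6 samples of stage 5 embryos, 3 of *zldZnF2* and 3 of *w1118*, was grouped by genotype as labelled. The authors mapped trimmed single-end reads to dm6 with STAR, assembled transcripts with Cufflinks and compared genotypes with Cuffdiff, and deposited 1 FPKM per genotype and locus over the 3 replicates. The sample records name TopHat as well as STAR. The depth per sample is unknown, and options for strand and shared reads are not given in the sources used here. The authors' columns of fold change, test statistic, p and q were not used. Log2 ratios were computed with a pseudocount of 1 FPKM over the 5950 loci with a mean FPKM of at least 1. A run on simulated ratios, planted with the same formula, checked the arithmetic only and says nothing about the ratios given here. With 1 value per genotype no test was run.

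The 8 genes and all companion lists were chosen with earlier results of these data known. All 8 were named, as were companion genes past 2-fold or, in lists with none, the 2 with the largest ratios. Others were named after their values were seen. The comparison by level (10 and 100 FPKM) was added after the levels were seen. Symbols were matched through Ensembl release 115 and RefSeq synonyms, and all 72 companion genes matched. Coordinates are 1-based. Decay classes were read by name from the study's supplementary list. Python 3.11.15, NumPy 2.4.6, pandas 2.3.3 and Matplotlib 3.10.9 were used. Other pseudocounts, FPKM minimums, fold limits, single-gene loci and centring were tried.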

Additional observations from a re-analysis of the deposited data

How the results depend on the processing

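No ratio of the 8 genes changed sign under the other pseudocounts, FPKM minimums and centring tried, and 51 of 53 values moved by at most 0.1 on the log2 scale. The exceptions were those of *ttk*, -0.78 with a pseudocount of 0.1 and -0.83 with none. With either, 2 genes in place of 1 were lower by more than 1.5-fold. With a fold limit of 3, 0 of the 8 were higher. The shares of all loci for these 2 changes are not given, so neither count is read as a result about the 8 genes. With a mean FPKM of at least 5, *ttk* was left out and 3 companion genes in place of 5 were higher by more than 2-fold. The share of all loci higher by that much was 7.44% in that setting, in place of 9.73%. Of 56 list medians, 4 moved by more than 0.1: those of the MSL list (-0.31) and the Tramtrack list (-0.25) over single-gene loci, of the JAK/STAT list (-0.02) with a mean FPKM of at least 5, and of the Grainy head target list (-0.13) with no FPKM filter. All loci with a mean FPKM of at least 1 had enough alignments by Cuffdiff's status, so that setting changed nothing. No paired analysis was possible because the table holds 1 pooled value per genotype, and for the same reason no replicate could be left out.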

Other observations

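For each of the 8 genes, the single-gene locus with the most similar pair of levels was found by distance on the log2(FPKM + 1) scale over the 2 genotypes. With 2 values per gene, likeness is a description of level and ratio only. The nearest to *grh* was *Khc-73*, a kinesin gene, with 38.5 FPKM in *zldZnF2* embryos and 19.5 FPKM in *w1118* embryos, and 26 loci lay within a distance of 0.25 of *grh*. The nearest to *Stat92E* was *Cbl*, a ubiquitin ligase gene, with 129.6 FPKM in *zldZnF2* embryos and 195 FPKM in *w1118* embryos, among 19 loci within that distance. *lola* had the fewest such loci, 4, the nearest being *Nlp*, a nucleoplasmin gene, with 1349 FPKM in *zldZnF2* embryos and 1424 FPKM in *w1118* embryos. *psq* had the most, 92.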
